A study of Mus musculus with 6 samples.

Results

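Ptpla and Rerg were followed in sorted dental follicle cells of the mouse. Both were chosen by symbol, from their link to cementum, and they are 2 of the 17213 genes in the count table. Ptpla is the older symbol of Hacd1. The 3 libraries labelled KO came from cells given as Pth1r(-/-), and the 3 labelled Het from cells given as Pth1r(+/-). All 6 libraries were made from tdTomato-positive cells of mandibular molar follicles, described in the labels as PTHrP-positive and taken at postnatal day 8 after a tamoxifen pulse, which the series text puts at day 3 and the sample descriptions at day 8. The Het libraries thus also carry 1 inactivated allele of Pth1r, the receptor of PTH and PTHrP, and the labels name no promoter behind the deletion. The comparison asks how follicle cells differ when both alleles are targeted.

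Cementum is the thin mineralised tissue that covers the tooth root and anchors the fibres of the periodontal ligament. It is laid down by cementoblasts, which arise from the dental follicle, the sac of connective tissue around the unerupted tooth. Ptpla encodes a dehydratase of the endoplasmic reticulum that removes water from 3-hydroxyacyl-CoA, the third step of the cycle that lengthens very long-chain fatty acids. In humans a truncated product of the same gene has been described as cementum attachment protein. Rerg encodes a small GTPase related to Ras, first described in human breast cancer cells as a growth inhibitor under oestrogen control.

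Ptpla lies on chromosome 2 from 13850282 to 14056135 and Rerg on chromosome 6 from 137054825 to 137170497, both on the minus strand (mm10, GENCODE M21). A coding transcript of Ptpla, Hacd1-203, is 993 bases long in 7 exons, of which 744 bases are coding. Hacd1-202 lacks exon 5 of that form, whose length is no multiple of 3, and its coding part is 495 bases. Rerg-201 is 2075 bases long in 5 exons with 597 coding bases. Rerg-203 lacks exon 3 of that form, whose length is a multiple of 3, and keeps 540 coding bases. These 2 exons separate the longer from the shorter coding forms, and the counts per gene used below sum over all forms. They are printed 5′ to 3′ in the sense of the transcript, from GENCODE transcripts. The exon is in capitals and 20 coding bases on each side are in lower case. The Ptpla exon lies at chr2:14040834-14040955 and the Rerg exon at chr6:137066999-137067055, 122 and 57 bases long.
Ptpla exon 5: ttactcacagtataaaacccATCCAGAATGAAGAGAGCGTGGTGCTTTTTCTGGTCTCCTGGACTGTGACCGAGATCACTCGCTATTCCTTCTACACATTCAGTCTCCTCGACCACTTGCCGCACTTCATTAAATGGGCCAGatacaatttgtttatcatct
Rerg exon 3: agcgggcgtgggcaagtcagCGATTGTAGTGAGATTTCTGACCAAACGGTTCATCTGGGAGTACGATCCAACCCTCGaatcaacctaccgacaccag

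**Figure D1:**
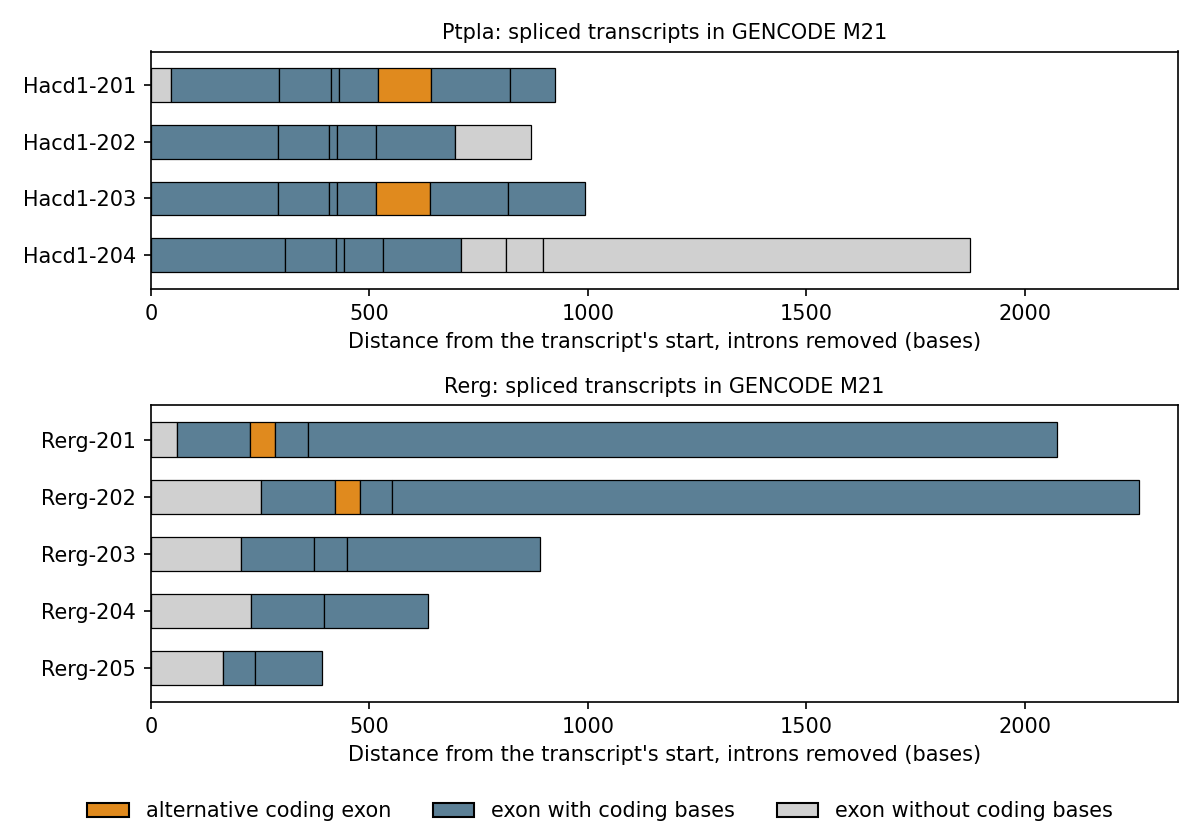
Annotated transcripts of Ptpla (Hacd1) and Rerg, drawn to scale with introns removed; the x axis is the distance from each transcript's start in bases, boxes are exons, and the colours mark the alternative coding exon, other exons with coding bases and exons with none. The alternative exon of 122 bases is present in Hacd1-201 and Hacd1-203, and that of 57 bases in Rerg-201 and Rerg-202.

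The libraries held 51804736 to 66147200 counts in the KO group and 34019925 to 63787622 in the Het group. Het replicate 2 had the fewest genes with a count, 14668, against 15175 to 16128 in the other libraries. It also stood apart in its counts, with a chi-square of 266 to 401 per degree of freedom against each other library, while pairs of the other libraries gave 86.2 to 157. Pth1r itself went against the labels, with 961, 608 and 472 CPM (counts scaled for depth with TMM factors) in KO replicates 0, 1 and 2, and 371, 286 and 346 CPM in Het replicates 0, 1 and 2, so every direction below is that of the libraries labelled KO against those labelled Het. Counts over the whole gene do not show whether its deleted part was transcribed. Of 12 follicle genes checked, all 12 had enough counts to be tested. Their summed level was 36386 to 65525 CPM in libraries labelled KO and 21628 to 50440 CPM in libraries labelled Het. Most of it was collagen, with Col1a1 and Col3a1 at 41011 and 21256 CPM in KO replicate 0 and 9738 and 8990 CPM in Het replicate 2. The sum therefore does not by itself identify follicle cells. As fitted, 6 of the 12 were higher, Pth1r among them, and 6 lower in libraries labelled KO. Enamel and epithelial genes were also abundant, with 8 of them summing to 5188 to 10839 CPM in libraries labelled KO and 5281 to 8513 CPM in libraries labelled Het. All 14632 genes that passed the filter were fitted together by the quasi-likelihood method of edgeR. An adjusted p under 0.05 was reached by 0% of them, and an unadjusted p under 0.05 by 4.29%, 2.58% higher and 1.71% lower in libraries labelled KO. DESeq2 called 0.509% of its genes. Whether the libraries stem from different animals is not stated in the labels, so the p-values reflect library-to-library spread, which may be technical in part.

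Ptpla was lower in every library labelled KO than in any library labelled Het. It was at 63.7, 48.1 and 59.7 CPM in KO replicates 0, 1 and 2, and at 77.7, 68.9 and 82.2 CPM in Het replicates 0, 1 and 2. The nearest libraries of the groups, KO replicate 0 and Het replicate 1, were 63.7 and 68.9 CPM, closer to each other than the libraries within either group were spread. The mean was 57.2 ± 8.07 CPM in libraries labelled KO and 76.3 ± 6.75 CPM in libraries labelled Het (SD, n = 3 each). On the log2 scale the difference was -0.42 (standard error 0.19), a fold of 0.749, and edgeR's adjusted p was 0.976 (unadjusted 0.0607). Permuting the libraries exactly (two-sided, log2 CPM, replicate numbers ignored) gave p = 0.1, and 3 against 3 libraries allow no smaller value in this unpaired test. Without Het replicate 2 the log2 fold change was -0.36 and edgeR's adjusted p 0.890.

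Rerg had the opposite order, with every library labelled KO above every library labelled Het. It was at 68.8, 56.4 and 61.0 CPM in KO replicates 0, 1 and 2, and at 36.2, 37.6 and 53.0 CPM in Het replicates 0, 1 and 2. Het replicate 2 lay apart from the other libraries of its group, and 53.0 CPM there was close to the 56.4 CPM of KO replicate 1. The mean was 62.1 ± 6.28 CPM in libraries labelled KO and 42.3 ± 9.34 CPM in libraries labelled Het (SD, n = 3 each). On the log2 scale the difference was 0.55 (standard error 0.22), a fold of 1.47, and edgeR's adjusted p was 0.976 (unadjusted 0.0326). The exact permutation p was again 0.1, the smallest possible. Without Het replicate 2 the log2 fold change was 0.75 and the adjusted p 0.605.

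Neither gene passed the threshold, and separated groups are common in these data. Of all genes tested, 10.7% had groups with no overlap, 5.84% with higher and 4.83% with lower values in libraries labelled KO. By unadjusted p, Rerg ranked 394th and Ptpla 790th of 14632 genes. Counting error was small beside the spread between libraries, since the lowest count, 1349 for Rerg in Het replicate 1, carries a counting error of 2.72%. The spread within groups, as SD over mean, was 14.1% in libraries labelled KO and 8.85% in libraries labelled Het for Ptpla, and 10.1% in libraries labelled KO and 22.1% in libraries labelled Het for Rerg.

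**Figure D2:**
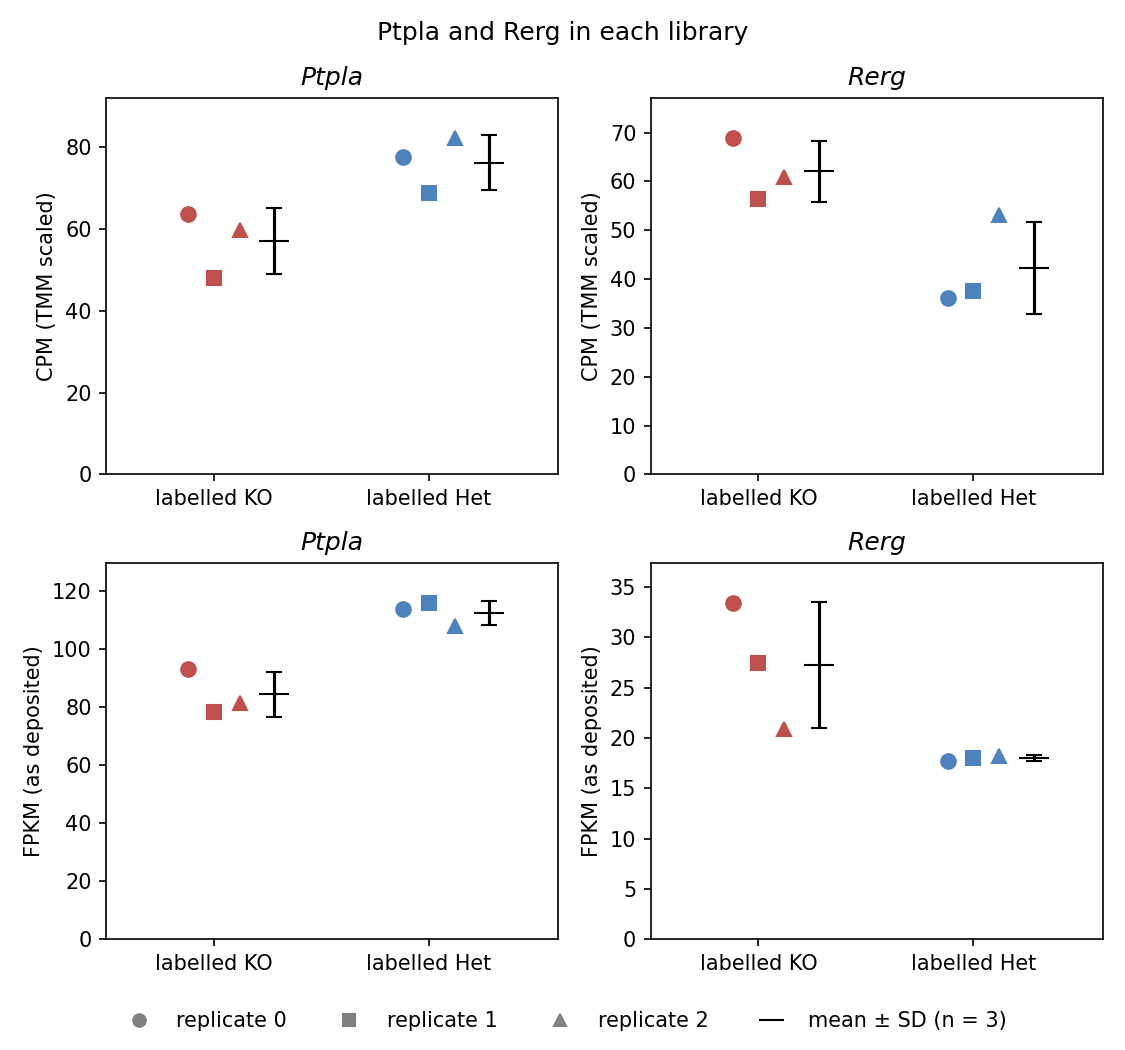
Levels of Ptpla and Rerg in each library, as TMM-scaled CPM (upper row) and as deposited FPKM (lower row); symbols mark the replicate number and bars the mean ± SD of 3 libraries. Ptpla sits at 48.1 to 63.7 CPM in libraries labelled KO and 68.9 to 82.2 CPM in libraries labelled Het, while Rerg sits at 56.4 to 68.8 CPM in libraries labelled KO and 36.2 to 53.0 CPM in libraries labelled Het.

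The ratio of the genes within a library does not depend on how libraries are scaled to each other. Ptpla counts divided by Rerg counts gave 0.925, 0.853 and 0.979 in KO replicates 0, 1 and 2, and 2.15, 1.84 and 1.55 in Het replicates 0, 1 and 2. Rerg thus had more counts than Ptpla in every library labelled KO and fewer in every library labelled Het. In the deposited FPKM, which divides fragments by depth and a length for each gene, Ptpla had the higher value in all 6 libraries. How that length was set is not stated. The estimated counts behind 1 FPKM of Rerg were not the same in every library (next paragraph), so the FPKM ratios also depend on this conversion. The FPKM ratio of Ptpla to Rerg was 2.80, 2.86 and 3.91 in KO replicates 0, 1 and 2, and 6.42, 6.42 and 5.91 in Het replicates 0, 1 and 2. These ratios were chosen after their values were seen and are given with no test.

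The FPKM values kept the separation of the groups, with another pattern inside them. Rerg was at 33.4, 27.4 and 20.8 FPKM in KO replicates 0, 1 and 2, and at 17.7, 18.0 and 18.3 FPKM in Het replicates 0, 1 and 2. Het replicate 2, which stood apart in CPM, was level with its group in FPKM, and KO replicate 2 came close to the Het libraries. Ptpla was at 93.3, 78.5 and 81.6 FPKM in KO replicates 0, 1 and 2, and at 114, 116 and 108 FPKM in Het replicates 0, 1 and 2. The number of estimated counts behind 1 FPKM of Rerg, relative to the median gene of the same library, was 0.718, 0.710 and 0.921 in KO replicates 0, 1 and 2, and 0.720, 0.728 and 0.903 in Het replicates 0, 1 and 2. The replicate 2 libraries of both groups thus shared a higher value for Rerg, 1.27 times the mean of the other 4, against 1.04 times for Ptpla. From the lowest to the highest of the 6 libraries, 51.1% of 11121 genes varied at least as much as Rerg in this measure. That share does not say how common a shift shared by the replicate 2 libraries was. What sets the shift was not tested.

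The enzymes of fatty acid elongation, Ptpla counted among them, were split between both directions. Of 14 listed genes, Ptpla included, 12 had enough counts to be tested; fitted values were higher for 4 and lower for 8 in libraries labelled KO. The median log2 fold change was -0.09, against -0.01 over all genes tested, and 0 passed the adjusted p in either direction. Without Het replicate 2, chosen after seeing the data, the median was -0.05. The groups did not overlap for 2 of the 12, Ptpla itself and Ptplb, both lower, against 4.83% of all genes tested. The untested genes were Elovl3 and Tecrl, with at most 15 counts in any library.

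The dehydratase step is served by a family of 4 genes, of which 3 had lower fitted values in libraries labelled KO. Ptplb, the older symbol of Hacd2, a widely expressed relative, was at 27.5, 23.3 and 26.9 CPM in KO replicates 0, 1 and 2, and at 35.4, 28.9 and 45.0 CPM in Het replicates 0, 1 and 2. Its groups did not overlap, and its log2 fold change of -0.49 (standard error 0.23) had an edgeR adjusted p of 0.976. Ptplad2, the older symbol of Hacd4, was at 22.4, 29.8 and 19.0 CPM in KO replicates 0, 1 and 2, and at 27.5, 51.2 and 45.6 CPM in Het replicates 0, 1 and 2, where KO replicate 1 exceeded Het replicate 0. Its log2 fold change was -0.80 (standard error 0.29, edgeR adjusted p 0.976). Ptplad1, the older symbol of Hacd3, had 98.5 ± 11.7 CPM in libraries labelled KO and 96.3 ± 14.9 CPM in libraries labelled Het (SD, n = 3 each), and its groups overlapped.

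In FPKM, Ptpla was the most abundant of the 4 dehydratase genes. In CPM, which takes no account of length, Ptplad1 was above Ptpla in every library. Its means were 98.5 against 57.2 CPM in libraries labelled KO and 96.3 against 76.3 CPM in libraries labelled Het. The estimated counts behind 1 FPKM of Ptpla were only 0.208 to 0.240 of those of the median gene, so its rank rests on that conversion. Ptpla averaged 84.4 ± 7.80 FPKM in libraries labelled KO and 112 ± 4.09 FPKM in libraries labelled Het (SD, n = 3 each). Ptplad1 averaged 32.5 ± 4.29 FPKM in libraries labelled KO and 31.9 ± 6.50 FPKM in libraries labelled Het, and Ptplad2 10.7 ± 4.56 FPKM in libraries labelled KO and 18.2 ± 7.26 FPKM in libraries labelled Het. Ptplb was lowest, at 6.62 ± 1.19 FPKM in libraries labelled KO and 9.05 ± 0.653 FPKM in libraries labelled Het. Within each library of both groups Ptplad2 was above Ptplb in FPKM, though only by little in KO replicate 2. In CPM their order differed between libraries. The difference between these genes was not tested.

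The enzymes of the other steps overlapped between groups. Tecr, the reductase that closes the cycle, averaged 503 ± 122 CPM in libraries labelled KO and 602 ± 156 CPM in libraries labelled Het. Hsd17b12, the 3-ketoacyl-CoA reductase, averaged 70.4 ± 4.08 CPM in libraries labelled KO and 73.2 ± 1.46 CPM in libraries labelled Het. Elovl1, a condensing enzyme for saturated and monounsaturated chains, averaged 108 ± 19.9 CPM in libraries labelled KO and 119 ± 37.5 CPM in libraries labelled Het (SD, n = 3 each). The ceramide synthases, which use long acyl chains and stand under their older Lass symbols, were split into 2 higher and 3 lower among 5 tested, a median log2 fold change of -0.10 and 0 past the adjusted p. The split became 3 higher and 2 lower without Het replicate 2, an alternative chosen after seeing the data.

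The small GTPases listed with Rerg were split between both directions. Of 17 listed genes, Rerg included, 16 were tested, 6 with higher and 10 with lower fitted values in libraries labelled KO. The median log2 fold change was -0.22, and 0 passed the adjusted p. The groups did not overlap for 1 of the 16, Rerg itself, against 10.7% of all genes tested in either direction. Without Het replicate 2, chosen after seeing the data, 17 were tested, 8 higher and 9 lower, with a median of -0.04. Rasl11a, which has been linked to ribosomal RNA synthesis, was at 49.4, 30.6 and 46.0 CPM in KO replicates 0, 1 and 2, and at 27.5, 32.4 and 26.9 CPM in Het replicates 0, 1 and 2. Its log2 fold change of 0.54 was close to that of Rerg, KO replicate 1 lay among the Het libraries, and edgeR's adjusted p was 0.976. Rasl11b, the most abundant of the list in FPKM, averaged 119 ± 18.1 FPKM in libraries labelled KO and 129 ± 13.5 FPKM in libraries labelled Het (SD, n = 3 each). Gem, an inhibitor of voltage-gated calcium channels, was at 48.8, 43.3 and 52.3 CPM in KO replicates 0, 1 and 2, and at 65.3, 47.3 and 82.3 CPM in Het replicates 0, 1 and 2, with overlapping groups.

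The classical Ras and Rap genes had mostly lower fitted values in libraries labelled KO. Of 15 tested, 3 were higher and 12 lower as fitted, the median log2 fold change was -0.16, and 0 were past the adjusted p. Without Het replicate 2, chosen after seeing the data, the split was 7 higher and 8 lower and the median -0.05. The groups did not overlap for 1 of the 15, Rras, a regulator of integrin adhesion, against 10.7% of all genes tested in either direction. Rras was at 33.0 ± 3.95 CPM in libraries labelled KO and 46.8 ± 5.24 CPM in libraries labelled Het (SD, n = 3 each, edgeR adjusted p 0.976).

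Transcripts of oestrogen receptors, the hormone axis Rerg is named for, were scarce. Esr1, the gene of oestrogen receptor alpha, was at 1.69, 3.50 and 2.40 CPM in KO replicates 0, 1 and 2, and at 1.48, 4.12 and 2.39 CPM in Het replicates 0, 1 and 2. Esr2 had 2 to 5 counts in libraries labelled KO and 1 to 4 counts in libraries labelled Het, too few to be tested. Greb1, a coactivator induced by oestrogen receptor in breast cells, averaged 5.26 ± 2.28 CPM in libraries labelled KO and 7.85 ± 5.31 CPM in libraries labelled Het (SD, n = 3 each). The order of the libraries by Esr1 was not that of Rerg, and of 5 tested genes of the axis 0 passed the adjusted p.

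**Figure D3:**
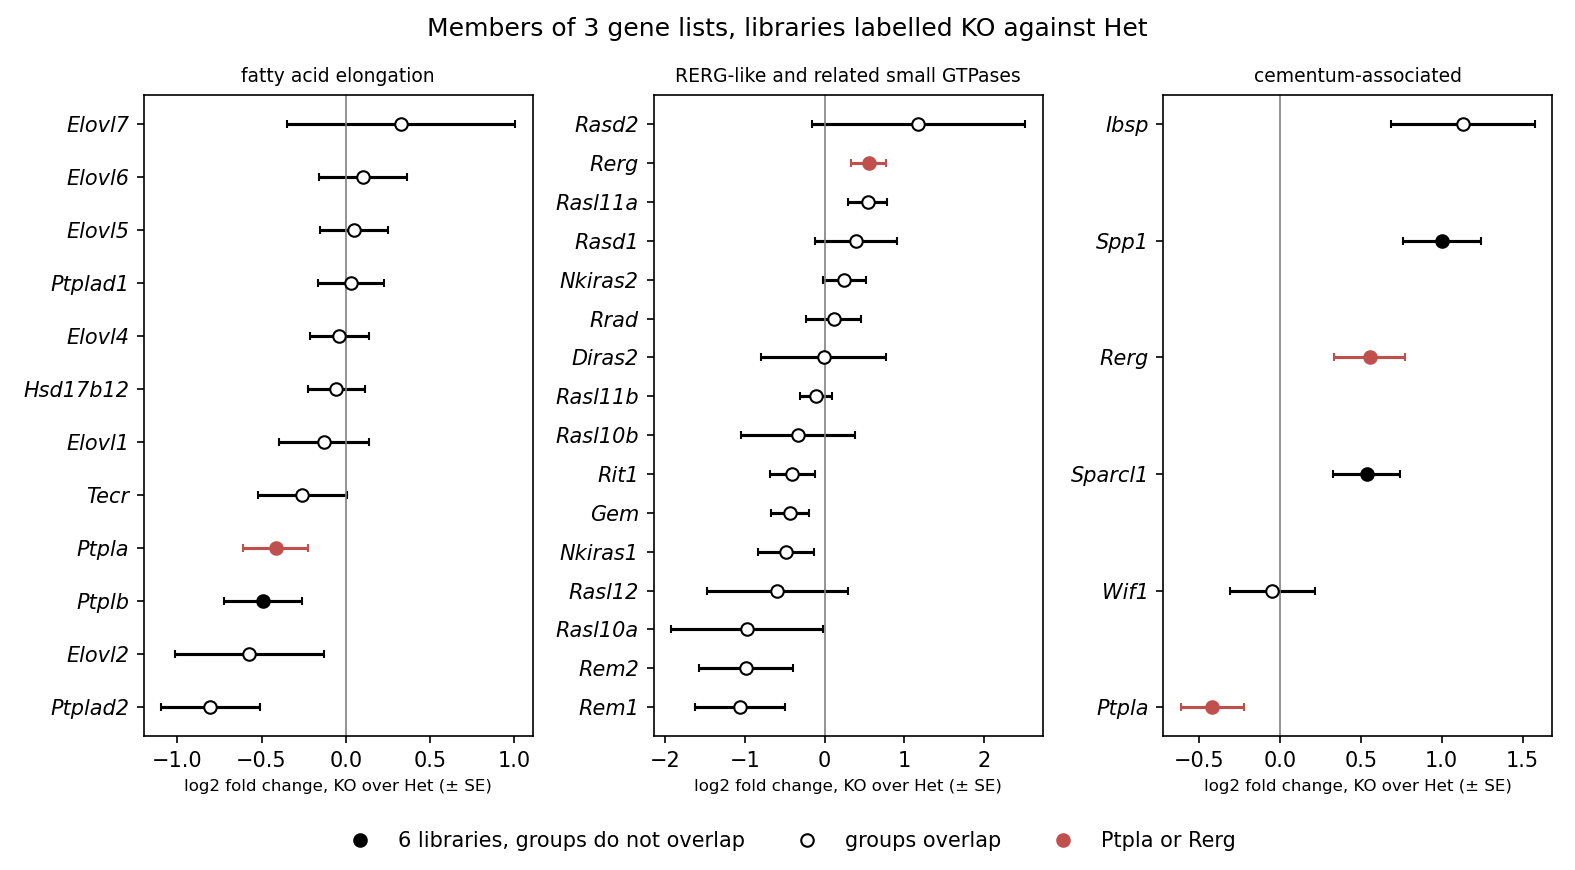
Fitted log2 fold changes (KO over Het, ± standard error) of the tested genes of the lists for fatty acid elongation, for small GTPases related to Rerg and for cementum; filled points mark genes whose groups do not overlap and red marks Ptpla and Rerg. Ptpla and Rerg stand on opposite sides of 0, at -0.42 and 0.55, and no gene shown passed the adjusted p.

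Among the genes tied to cementum, Ptpla and Rerg had opposite signs. Of 6 genes in that list, the fitted value was higher for 4 and lower for 2 in libraries labelled KO. The median log2 fold change was 0.55, and 0 passed the adjusted p over all genes. This list was drawn up with these results known, so its direction is no independent evidence. Ptpla had the lowest log2 fold change of the 6. Ibsp, the gene of bone sialoprotein, an acidic protein abundant in cementum and bone, was at 16424, 9714 and 12520 CPM in KO replicates 0, 1 and 2, and at 4072, 3112 and 10458 CPM in Het replicates 0, 1 and 2. As for Rerg, Het replicate 2 was far above the other libraries of its group, here also above KO replicate 1. The Pearson r between Rerg and Ibsp over the 6 libraries was 0.98 in log2 CPM, and Ibsp ranked 7th among the 10521 genes searched for likeness to Rerg. In FPKM the patterns parted within the Het group. Ibsp was at 2214.5, 1487.9 and 4309.8 FPKM in Het replicates 0, 1 and 2, and Rerg at 17.7, 18.0 and 18.3 FPKM. Spp1, the gene of osteopontin, another acidic matrix protein, had an r of 0.50 with Rerg and of -0.93 with Ptpla.

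Of 10 osteoblast and cementoblast genes, all 10 were higher as fitted in libraries labelled KO, against 7163 of all 14632 genes tested. Their median log2 fold change was 0.55, with 0 past the adjusted p, and 0.33 without Het replicate 2, an alternative chosen after seeing the data. Dmp1, a phosphoprotein of mineralised matrix, was at 536, 248 and 138 CPM in KO replicates 0, 1 and 2, and at 72.4, 29.0 and 84.8 CPM in Het replicates 0, 1 and 2. Its r with Rerg was 0.86. Dmp1 was the only 1 of the 10 whose groups separated, against 5.84% of all genes tested with higher values. Earlier results of these data were known when the 10 were listed, so their shared direction is no independent evidence. Runx2, the master transcription factor of osteoblasts, averaged 276 ± 63.7 CPM in libraries labelled KO and 219 ± 12.7 CPM in libraries labelled Het (SD, n = 3 each), with overlapping groups.

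The genes whose pattern over the 6 libraries was most like Ptpla were Cox11, a copper chaperone of cytochrome c oxidase (Pearson r 0.997), Ilk, a scaffold at integrin adhesions (0.988), Dnajb2, a co-chaperone (0.986), Gfm1, a mitochondrial translation factor (0.986), and Ccdc61, a centrosomal protein (0.985). Those most like Rerg were Car3, a carbonic anhydrase (0.996), Smarcd2, a chromatin remodelling subunit (0.996), Glyr1 (0.991), Dlgap5, a spindle protein (0.984), and Ndufs1, a subunit of respiratory complex I (0.984). These values are the highest among 10521 genes over only 6 libraries that share their groups and depths, and they are given as a description with no test. They come from log2 CPM, and r was not computed from FPKM, where Rerg had another pattern within the groups. Car3 followed Rerg with a wider range, at 285, 141 and 166 CPM in KO replicates 0, 1 and 2, and 23.6, 22.9 and 116 CPM in Het replicates 0, 1 and 2. Cox11 ran through a narrower range, at 26.7, 22.2 and 25.1 CPM in KO replicates 0, 1 and 2, and 30.1, 27.4 and 31.2 CPM in Het replicates 0, 1 and 2. Between Ptpla and Rerg themselves r was -0.48.

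The genes that flank Ptpla and Rerg on the chromosome did not share their separation. Beside Ptpla, Stam, an endosomal sorting adaptor, was at 46.0 ± 6.53 CPM in libraries labelled KO and 44.0 ± 12.4 CPM in libraries labelled Het, and Vim, the gene of vimentin, at 501 ± 64.6 CPM in libraries labelled KO and 507 ± 193 CPM in libraries labelled Het. Beside Rerg, Arhgdib was at 24.3 ± 12.7 CPM in libraries labelled KO and 18.3 ± 8.80 CPM in libraries labelled Het, and Eps8, an actin-capping protein, at 23.5 ± 1.20 CPM in libraries labelled KO and 29.1 ± 12.8 CPM in libraries labelled Het (SD, n = 3 each). St8sia6, beside Ptpla, overlapped between groups with 0 counts in 2 Het libraries, and Ptpro, beside Rerg, and Tmem236, beside Ptpla and listed as Fam23a, had too few counts to be tested. Pde6h, beside Rerg, was not analysed here. No exon of Ptpla or Rerg overlaps an exon of another annotated gene.

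Ptpla is known for its high expression in skeletal muscle, and muscle transcripts were scarce. The 9 muscle genes with a row summed to 2.48 to 3.56 CPM in libraries labelled KO and 3.25 to 9.49 CPM in libraries labelled Het, below the level of Ptpla alone in every library. Of these, Mylpf and Tnnt3 had enough counts to be tested. Mylpf, a fast muscle myosin light chain, was at 1.26, 1.002 and 1.66 CPM in KO replicates 0, 1 and 2, and at 2.65, 2.56 and 6.21 CPM in Het replicates 0, 1 and 2, so its groups separated in the direction of Ptpla, with an r of 0.89 to it (log2 fold change -1.54, edgeR adjusted p 0.976). Tnnt3, a fast troponin, had overlapping groups and a log2 fold change of -0.46, and the other 7 had at most 61 counts over all 6 libraries. Smooth muscle and pericyte genes were mixed: of 8 tested, 2 had higher and 6 lower fitted values in libraries labelled KO. The groups separated for 2, Acta2 and Tagln, both lower, against 4.83% of all genes tested. Cspg4, a pericyte proteoglycan, overlapped with a log2 fold change of 0.85. The 9 genes summed to 742 to 852 CPM in libraries labelled KO and 1046 to 1187 CPM in libraries labelled Het, and the actin gene Acta2, most of that sum, had an r of 0.94 with Ptpla. Of 7 endothelial genes 3 were higher and 4 lower as fitted, and the groups separated for 2, Pecam1 and Kdr, both lower, against 4.83% of all genes tested. Pecam1 was scarce, with 27 to 99 counts in libraries labelled KO and 105 to 239 in libraries labelled Het. The 7 endothelial genes summed to 5.68 to 8.99 CPM in libraries labelled KO and 10.02 to 20.3 CPM in libraries labelled Het. Of 5 odontoblast genes 3 were higher and 2 lower as fitted, and the groups separated for Dmp1 alone, which was higher, against 5.84% of all genes tested. The 3 higher, Phex, Bglap and Dmp1, were also counted among the osteoblast and cementoblast genes above. Dspp, the gene of dentin sialophosphoprotein, overlapped with a log2 fold change of -0.12. The 5 genes summed to 201 to 641 CPM in libraries labelled KO and 96.3 to 181 CPM in libraries labelled Het, most of it Dmp1 in libraries labelled KO. Of 9 macrophage and leukocyte genes, all 9 were higher as fitted in libraries labelled KO, against 7163 of all 14632 genes tested. Their median log2 fold change was 1.22, 0 passed the adjusted p, and the groups overlapped for every gene. They summed to 27.0 to 141 CPM in libraries labelled KO and 20.4 to 87.8 CPM in libraries labelled Het. Schwann and nerve genes, 2 higher and 2 lower as fitted among 4 tested, summed to 17.6 to 36.9 CPM in libraries labelled KO and 22.4 to 30.3 CPM in libraries labelled Het. Every gene with a row in the count table had a count in at least 1 library, so no listed gene could be at 0 in all 6. The muscle genes Myod1, Myh3 and Myh8 and the nerve gene Ncmap had no row and were not assessed. The part of other cell types in the values of Ptpla and Rerg was not tested, and in sorted bulk cells fewer cells of a type and less RNA per cell cannot be told apart.

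The directions of both genes held under every setting tried. Over 16 alternatives the log2 fold change of Ptpla lay between -0.49 and -0.31 and that of Rerg between 0.45 and 0.75. The lowest adjusted p among them was 0.706 for Ptpla and 0.573 for Rerg. Ratios between libraries with the same replicate number were 0.820, 0.698 and 0.726 for Ptpla (KO over Het, numbers 0, 1 and 2) and 1.90, 1.502 and 1.15 for Rerg.

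**Figure D4:**
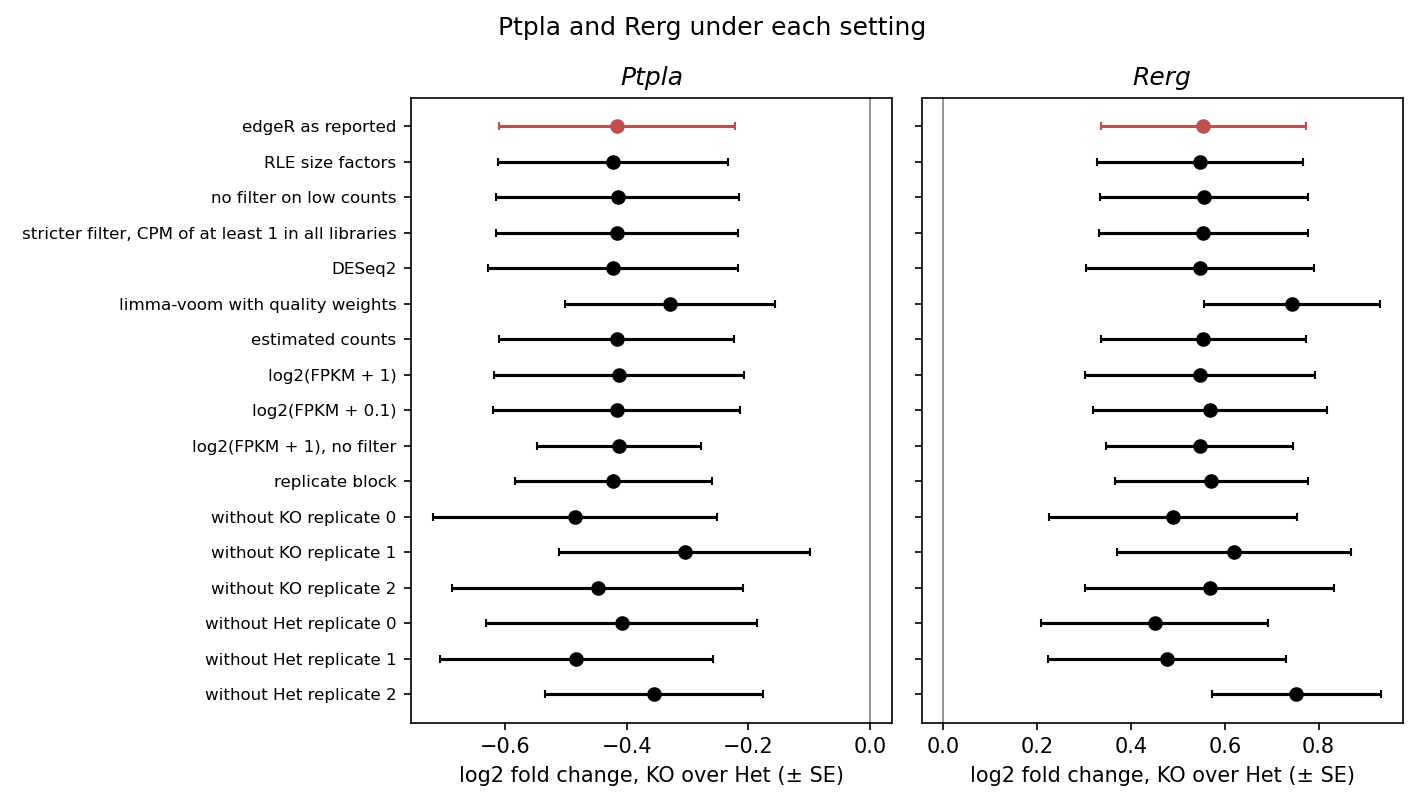
Log2 fold change (KO over Het, ± standard error) of Ptpla and Rerg as reported and under each alternative filter, scaling, test, table or left-out library. Ptpla stays between -0.49 and -0.31 and Rerg between 0.45 and 0.75, with the widest departure for Rerg when Het replicate 2 is left out.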

How the data were processed

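Per the labels' protocols, cDNA was amplified from few sorted cells (SMART-Seq) and sequenced as Nextera XT libraries; with no molecular identifiers, counting errors cover counting only. The submitters' processing notes name the build mm10, Bowtie2 2.2.1 and TopHat2 2.0.13, and further HTSeq, DESeq2, Cuffdiff, Cufflinks and FastQC, without their roles; annotation and strand are not stated there. The deposited tables used hold raw counts per gene, estimated counts (rounded here; 1.66% are not whole within 1e-06) and FPKM values scaled by the authors. Deposited rescaled and log-transformed copies were not used.

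The main test was edgeR 4.0.16's quasi-likelihood F test under R 4.3.3 (TMM, default filter, 14632 genes, Benjamini-Hochberg adjustment, threshold 0.05, two-sided). Standard errors came from the F statistic. Between any 2 libraries the counts differed well beyond sampling noise (chi-square of at least 86.2 per degree of freedom), so each library counts as 1 sample. Groups and replicate numbers came from the titles. Deviations from the group means correlated between libraries with the same number (r = 0.25, 0.18 and 0.16 over 11216 genes), so the numbers pair the libraries by this check of the data, and no label gives a shared litter or day.

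Alternatives were RLE scaling, no filter and a stricter one, DESeq2 1.42.0, limma 3.58.1 (voom with quality weights, and trend on log2(FPKM + 1) or log2(FPKM + 0.1), which understates the change of low genes), the estimated counts, the replicate block and each library left out. Named genes were Ptpla, Rerg, Pth1r, members of fixed lists, the 2 nearest protein-coding genes on each side, and the 5 genes of highest Pearson r per member among tested genes whose log2 CPM (prior count 2) averaged 2 or more. Members and lists were chosen with earlier results of these data known. A RefSeq gene table linked older to current symbols (GRCm38.p6), and positions came from GENCODE M21, on the same assembly as mm10.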

Additional observations from a re-analysis of the deposited data

How the results depend on the processing

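Ptpla kept lower and Rerg higher fitted values in libraries labelled KO under all 16 alternatives, and neither passed an adjusted p of 0.05 under any. The unadjusted p was under 0.05 in 3 alternatives for Ptpla and 12 for Rerg. In the replicate block fit the log2 fold change was -0.42 for Ptpla and 0.57 for Rerg, the adjusted p 0.797 for both, and 0 genes passed; the block changed no call. The count of genes past the threshold in edgeR, 0 (628 at an unadjusted p under 0.05), became 87 in DESeq2, 66 higher and 21 lower, with neither Ptpla nor Rerg among them. It became 1 under the stricter filter, in limma-voom and in each of the 3 fits of FPKM, and 0 to 1 with a library left out; the cause was not tested. Leaving out single libraries gave log2 fold changes of -0.49 to -0.31 for Ptpla and 0.45 to 0.75 for Rerg. Whole-gene counts limit these results to sums over transcripts, and the test rests on 3 libraries per group.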
